A study of Rattus norvegicus with 78 samples.

Results

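The arrays described here are the frontal cortex arrays of a microarray study of Flinders rats, taken as a comparison of the second cohort of animals with the first. The members were chosen by region alone: 39 of the 78 arrays of the series held RNA of the prefrontal/frontal cortex (P/FC), and the other 39 held RNA of the hippocampus (HIP). Cohort 2 had 18 P/FC arrays, 10 of the Flinders Resistant Line (FRL) and 8 of the Flinders Sensitive Line (FSL). Cohort 1, set up 6 months earlier, had 21, 12 of FRL and 9 of FSL. FSL is a line bred as a genetic model of depression and FRL is its control line. All animals were adult male rats from one breeding facility, swam in the forced swim test, and were killed by decapitation after a week of rest. The sample was the whole frontal lobe of the right hemisphere, 1 animal to an array, and no drug was given. Within a cohort a single lot of reagents and of chips was used and between cohorts the lots differed, so the animals' cohort and the lots cannot be told apart. The question asked was which transcripts differed between the cohorts in both lines, with attention to genes of dissection, of the circadian clock, of neuronal activity and of stress.

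Several of the gene groups examined are known for changing within hours. Immediate early genes such as Fos, Egr1 and Arc are transcribed within minutes of neuronal firing or of handling, through calcium and cyclic AMP signals that act on CREB at the cyclic AMP response element and through serum response factor at the CArG box, and their transcripts are short-lived. The circadian clock is a loop in which the CLOCK and BMAL1 proteins bind E-boxes and switch on the Per and Cry genes, whose products inhibit them. Adrenal glucocorticoids rise with the daily rhythm and with stress and induce genes such as Sgk1, while cold-inducible RNA-binding proteins follow body temperature. In cortex these groups are therefore sensitive to the hour and manner of tissue collection, which the labels do not give.

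The promoters of 6 members are shown because they carry short motifs for which these genes are known. Each run holds the 250 bases before the start site in RefSeq (build GRCr8), 5′ to 3′ on the gene's strand. Capitals mark TGACG, the first letters of the cyclic AMP response element TGACGTCA, in Egr1, Egr2, Nr4a1 and Dusp1, together with the CArG box in Egr1 and Egr2. In Egr1, Egr2 and Nr4a1 that motif lies on the opposite strand, so the capitals read as its reverse complement, CGTCA. They mark the heat shock element GAANNTTC in Bag3 and the E-box CACGTG in Bhlhe40.
Egr1 (chr18:26736828-26737077, plus strand): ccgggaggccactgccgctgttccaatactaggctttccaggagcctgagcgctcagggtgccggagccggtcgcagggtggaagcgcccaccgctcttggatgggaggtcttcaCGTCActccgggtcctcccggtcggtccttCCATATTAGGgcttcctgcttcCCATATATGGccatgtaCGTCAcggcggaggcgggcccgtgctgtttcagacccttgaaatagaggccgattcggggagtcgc
Egr2 (chr20:21054442-21054691, minus strand): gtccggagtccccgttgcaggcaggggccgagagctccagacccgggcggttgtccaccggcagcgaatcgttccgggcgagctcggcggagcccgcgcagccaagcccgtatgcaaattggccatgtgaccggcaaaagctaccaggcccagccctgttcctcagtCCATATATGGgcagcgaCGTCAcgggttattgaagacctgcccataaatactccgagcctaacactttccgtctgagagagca
Nr4a1 (chr7:134259888-134260137, plus strand): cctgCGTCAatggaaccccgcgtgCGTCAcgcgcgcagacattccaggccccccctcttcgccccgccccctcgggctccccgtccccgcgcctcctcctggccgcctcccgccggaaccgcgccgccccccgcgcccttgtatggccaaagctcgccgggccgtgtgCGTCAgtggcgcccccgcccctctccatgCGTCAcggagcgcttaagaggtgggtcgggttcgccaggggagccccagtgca
Dusp1 (chr10:17184603-17184852, plus strand): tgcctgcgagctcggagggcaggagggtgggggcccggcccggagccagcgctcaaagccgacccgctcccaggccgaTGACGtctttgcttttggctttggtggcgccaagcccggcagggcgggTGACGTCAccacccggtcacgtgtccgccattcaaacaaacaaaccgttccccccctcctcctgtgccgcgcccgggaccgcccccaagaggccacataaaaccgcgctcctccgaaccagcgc
Bag3 (chr1:192533210-192533459, plus strand): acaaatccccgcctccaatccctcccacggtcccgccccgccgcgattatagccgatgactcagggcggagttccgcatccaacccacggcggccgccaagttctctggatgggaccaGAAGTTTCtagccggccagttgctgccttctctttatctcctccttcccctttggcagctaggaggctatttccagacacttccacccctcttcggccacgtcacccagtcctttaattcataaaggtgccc
Bhlhe40 (chr4:143174200-143174449, plus strand): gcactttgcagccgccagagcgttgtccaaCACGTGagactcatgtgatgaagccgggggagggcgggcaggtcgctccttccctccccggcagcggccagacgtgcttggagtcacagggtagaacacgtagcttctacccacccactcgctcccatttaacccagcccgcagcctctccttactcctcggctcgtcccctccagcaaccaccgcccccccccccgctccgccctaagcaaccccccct
Both strands of 300 bases of each promoter, including the first 50 bases after the start site, were searched, and overlapping matches were all counted. TGACG stood in 7 of the 10 promoters on file for the activity-induced transcription factors that were higher in cohort 2, and in 21.2% of all 33469 promoters in the table. The full TGACGTCA stood in 1 of those 10, Ier2, and in 1.83% of all promoters. The CArG box stood in 2 of the 10, Egr1 and Egr2, and in 1.64% of all. Among the activity-induced effectors that were higher, 6 of 11 promoters on file held TGACG and 2, Dusp1 and Vgf, held the full element. Jund and Plk2, the only members of these lists that fell, held the full element too, so that it was not limited to genes that rose. GAANNTTC stood in 4 of 5 promoters of heat shock genes that were higher, in 2 of 4 of those that were lower, and in 8.59% of all. The E-box stood in Bhlhe40 and in none of the other 4 promoters on file for clock genes that passed, against 6.42% of all. The D-box TTATGNAA, bound by the DBP family and by NFIL3, stood in Per2 and in 3.66% of all. A match describes letters in this window only.

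The arrays of the cohorts differed in the 3′ to 5′ signal of control genes and in the hybridisation spikes. The median intensity was 63.5 ± 1.24 in cohort 2 and 63.1 ± 1.31 in cohort 1 (SD, n = 18 and 21, adjusted p = 0.394 by a two-sided permutation test within line, over 13 measures). The deposited values were already normalised between arrays. That scaling makes the medians alike, so their likeness is no result about the arrays. The signal of the 3′ probeset of Actb over that of its 5′ probeset, on the log2 scale, was 0.851 ± 0.136 in cohort 2 and 0.693 ± 0.103 in cohort 1 (adjusted p = 0.00026, permutation test), and that of Gapdh was 0.875 ± 0.0971 and 0.792 ± 0.0901 (adjusted p = 0.00472, permutation test), cohort 2 first. A higher ratio means that less of the 5′ end was labelled. The spike BioB, added at hybridisation, was lower by a mean of 0.61 on the log2 scale in cohort 2 (8.50 ± 0.217) than in cohort 1 (9.12 ± 0.432), and the spikes BioC, BioD and Cre were lower too, by 0.31 to 0.51. Of the poly-A spikes, which are carried through labelling, Phe was lower by 0.33 in cohort 2 (adjusted p = 0.038, permutation test). Its mean log2 level was 2.63 in cohort 2 and 2.97 in cohort 1. Dap, Lys and Thr did not pass (adjusted p = 0.835, 0.412 and 0.327, permutation test). Their mean log2 levels were 1.57, 3.04 and 3.51 in cohort 2 and 1.62, 2.96 and 3.34 in cohort 1. All of these levels were under the intensity filter used for probesets, so the poly-A spikes do not show whether labelling differed. Replicate 7 of FRL in cohort 2 had the highest Actb ratio, at 1.27. The part of these measures in the gene results was examined only by adding the Actb or the Gapdh ratio to the fit, and the values are given beside the groups below.

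**Figure D1:**
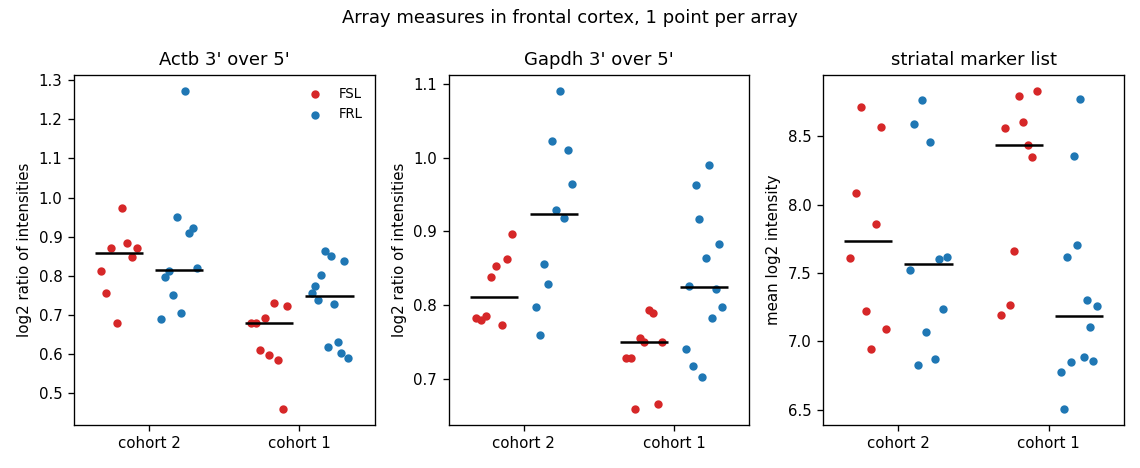
Signal of the 3′ over the 5′ probeset (log2) of Actb and of Gapdh, and mean log2 intensity of the striatal marker list, for each P/FC array, with cohort 2 left of cohort 1, FSL in red, FRL in blue and a bar at the median of each group. The Actb ratio lay between 0.679 and 1.27 in cohort 2 and between 0.461 and 0.865 in cohort 1, while the striatal level covered nearly the same range in both.

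A total of 6043 of 22233 probesets passed an adjusted p of 0.05 for cohort 2 minus cohort 1 (27.2% of those tested, limma with line as a covariate and Benjamini-Hochberg adjustment). Of these, 3180 (14.3%) were higher in cohort 2 and 2863 (12.9%) were lower. The changes were mostly small, with a median size of 0.24 on the log2 scale among the probesets that passed, and 24 of them changed more than 2-fold, 16 higher and 8 lower. The cohorts did not overlap in 68 probesets (0.306% of those tested). The direction was shared by the lines in 6032 of the 6043, and 3292 had an unadjusted p under 0.05 in each line on its own. In the joint fit 2573 probesets passed in FSL (11.6%, with 6.31% higher and 5.26% lower) and 3056 in FRL (13.7%, with 6.82% higher and 6.92% lower). With the Actb ratio in the fit 3541 probesets passed, and with the Gapdh ratio 4814.

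Neuronal activity genes were higher in cohort 2. Of 17 activity-induced transcription factors that were kept, 14 rose, 1 fell and 2 did not pass, and their median change was 0.67 on the log2 scale, against 0.01 over all probesets. A further 3 of the 20 on the array were too dim to be kept. Over all genes, with 1 probeset a gene, 24.7% passed, 14.2% higher and 10.5% lower.

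Nr4a3, an orphan nuclear receptor induced by activity, had intensities of 172 to 407 with a median of 274 in cohort 2, against 45.3 to 192 with a median of 77.6 in cohort 1. In 15 of the 18 cohort 2 arrays it was above the highest array of cohort 1, and the cohorts overlapped in the rest. Its change was 1.69 ± 0.14 on the log2 scale (SE, adjusted p = 2.34e-12, limma). The other probesets of Nr4a3, the first of them nearly as bright, changed by 0.50 and 0.46, and both passed. Its relatives Nr4a1 and Nr4a2 changed by 0.88 ± 0.14 and 0.55 ± 0.11. Nr4a1 lay between 415 and 1135 in cohort 2 (median 794) and between 203 and 1073 in cohort 1 (median 408).

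Fos, a subunit of the transcription factor AP-1, lay between 182 and 546 (median 269) in cohort 2 and between 23.3 and 529 (median 114) in cohort 1. Only 1 array of cohort 2 exceeded the highest of cohort 1, and no array of cohort 2 was as low as the cohort 1 median. The change of Fos was 1.34 ± 0.24 (SE, adjusted p = 5.38e-05, limma), and that of its relative Fosb was 1.30 ± 0.19. Other AP-1 subunits moved less. Jun rose by 0.22 and Junb by 0.40, while Jund, which is made at a steadier level, fell by 0.20. The dimmer probesets of Jun gave -0.09 and -0.25, so the direction for that gene rests on the brightest probeset. A second, dimmer probeset of Fos gave 0.02 (adjusted p = 0.915, limma).

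Egr2, a zinc finger factor of the early growth response family, lay between 161 and 482 (median 228) in cohort 2, against 61.0 to 343 (median 87.3) in cohort 1, a change of 1.29 ± 0.15 (SE, adjusted p = 1.28e-08, limma). In FSL rats Egr2 lay between 161 and 233 in cohort 2 and between 61.0 and 159.6 in cohort 1. How many of all probesets lacked overlap within FSL was not counted. Egr1, widely used as a marker of neuronal firing, lay between 1380 and 2905 (median 2125) in cohort 2 and between 882 and 2449 (median 1234) in cohort 1, a change of 0.67 ± 0.08. Egr4 changed by 0.68, and its dimmer probeset gave 0.14 and did not pass. Klf10 and Klf4, zinc finger transcription factors, rose by 0.97 and 0.84, and the immediate early genes Ier2 and Ier5 by 0.49 and 0.36. A dimmer probeset of Ier5 gave -0.03 and did not pass. Replicate 7 of FSL in cohort 1 was lowest for Fosb, at 5.91.

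**Figure D2:**
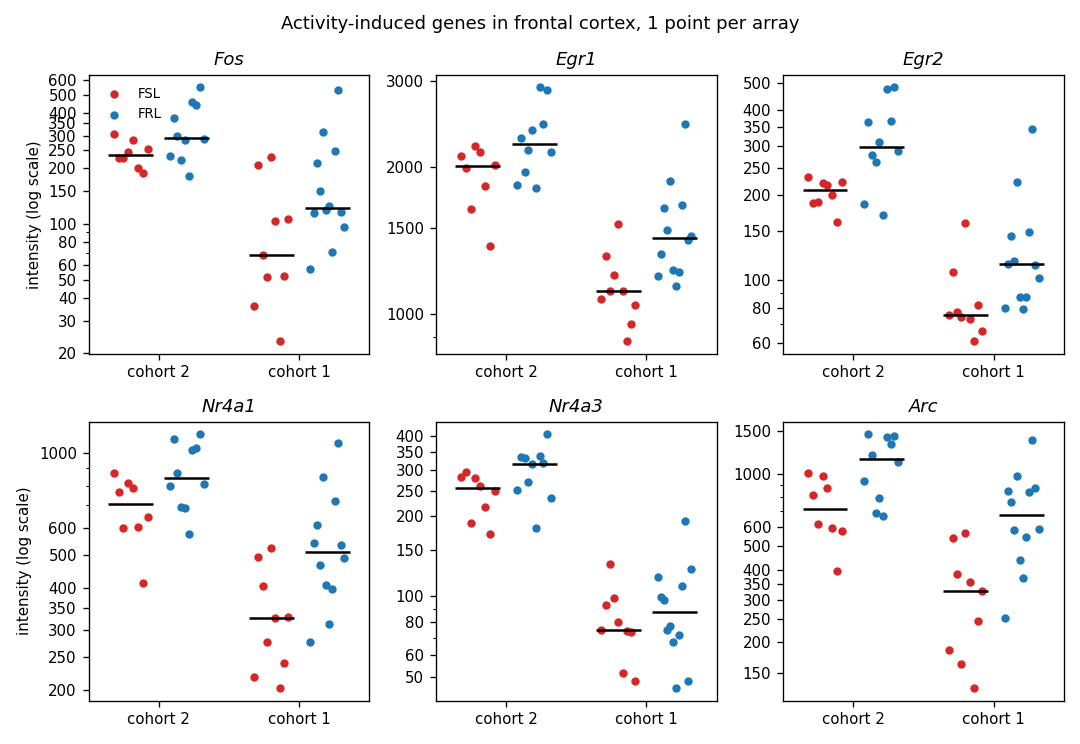
Intensity on a log scale of 6 activity-induced genes in each P/FC array, with cohort 2 left of cohort 1, FSL in red, FRL in blue and a bar at the median of each group. The medians were higher in cohort 2 for all 6, and Fos ranged more widely in cohort 1 (23.3 to 529) than in cohort 2 (182 to 546).

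The effectors that these factors and their signals induce moved the same way in most cases, with 13 of 19 kept members higher, 1 lower and 5 not passed, and a median change of 0.31. Arc, which acts at synapses in the removal of AMPA receptors, lay between 396 and 1459 (median 905) in cohort 2 and between 130 and 1384 (median 541) in cohort 1, a change of 0.97 ± 0.19 (SE, adjusted p = 0.00015, limma). Bdnf, a neurotrophin, lay between 110 and 193 (median 158) in cohort 2 and between 65.5 and 177 (median 114) in cohort 1, a change of 0.50 ± 0.11. A dimmer probeset of Bdnf gave 0.14 and did not pass. Vgf, a secreted peptide precursor induced by neurotrophins, changed by 0.37 ± 0.04 and was above every cohort 1 array in 14 of 18 cohort 2 arrays.

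Phosphatases that switch off MAP kinases were among the genes that rose, Dusp1 by 0.59 and Dusp6 by 0.39, as were the kinase Sik1 (0.45), the pseudokinase Trib1 (0.39), the activin subunit Inhba (0.38) and the prostaglandin synthase Ptgs2 (0.31). Dimmer probesets of Dusp1 and Inhba gave 0.73 and 0.83 and passed. That of Sik1 gave -0.18 and those of Dusp6 gave 0.08 and 0.20, and these did not pass. Plk2, a polo-like kinase, fell by 0.19. Homer1, a synaptic scaffold with a short isoform that activity induces, differed by probeset. The brightest of its 5 probesets changed by 0.14 (adjusted p = 0.0383, limma, not passed in 14 of the 39 fits that left out 1 array, where it was 0.12 to 0.14), 2 others by 0.74 and 1.58, and the last 2 gave 0.05 and 0.06 and did not pass. Which isoform each probeset detects was not examined. For its most changed probeset, Homer1 lay between 132 and 759 (median 325) in cohort 2 and between 34.4 and 304 (median 102) in cohort 1.

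With the Actb ratio in the fit, 10 of the 17 factors and 7 of the 19 effectors were higher, and with the Gapdh ratio 12 and 13. In FSL rats alone 13 factors and 10 effectors were higher, and in FRL rats alone 9 and 5, although FRL had more arrays. Of all 22233 probesets, in either direction, 3159 passed in FSL alone and 2246 in FRL alone. No probeset passed for a difference between the lines in their cohort change. With the level of Arc in the fit, 7 factors and 3 effectors were higher, including Nr4a3, Egr1 and Vgf. The activity counts were 14 for factors and 11 to 14 for effectors when any 1 array was left out.

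Clock genes passed at rates near those of all genes. Of 21 members of the core clock and its direct outputs, all on the array and kept, 4 rose (19.0%), 2 fell (9.52%) and 15 did not pass. Their median change was 0.02. Over all genes, with 1 probeset a gene, 14.2% were higher and 10.5% lower. Nfil3, a repressor that acts at the D-box, lay between 55.6 and 124 (median 84.0) in cohort 2, against 35.8 to 81.2 (median 58.6) in cohort 1, and 12 of 18 cohort 2 arrays were above all of cohort 1. Its change was 0.58 ± 0.08 (SE, adjusted p = 1.31e-06, limma). Cry1, a repressor of CLOCK and BMAL1, lay between 54.7 and 94.8 (median 70.0) in cohort 2 and between 36.3 and 67.0 (median 57.3) in cohort 1, a change of 0.34 ± 0.07.

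Per1 and Per2, the period genes, rose by 0.52 and 0.22, with wide overlap, as Per1 lay between 68.5 and 181 in cohort 2 and between 18.4 and 197 in cohort 1. Per1 is also induced by cyclic AMP signals and glucocorticoids. Dbp, an activator at the D-box whose level follows the clock closely, fell by 0.24, and lay between 265 and 356 (median 305) in cohort 2, against 286 to 440 (median 362) in cohort 1. Bhlhe40, a repressor at the E-box, fell by 0.29. Per1, Per2 and Bhlhe40 no longer passed with the Actb or the Gapdh ratio in the fit, and Per1 changed by 0.00 with the level of Arc in it. A second probeset of Per2 gave 0.07 and did not pass.

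Both cold-inducible RNA-binding proteins fell. Cirbp lay between 141 and 210 (median 160) in cohort 2 and between 177 and 312 (median 239) in cohort 1, with 14 of 18 cohort 2 arrays below all of cohort 1. Its change was -0.53 ± 0.07 (SE, adjusted p = 7.87e-08, limma), and its second probeset gave -0.85. Rbm3 changed by -0.21 ± 0.05 (adjusted p = 0.00439, limma), with 7 of 18 cohort 2 arrays below all of cohort 1.

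**Figure D3:**
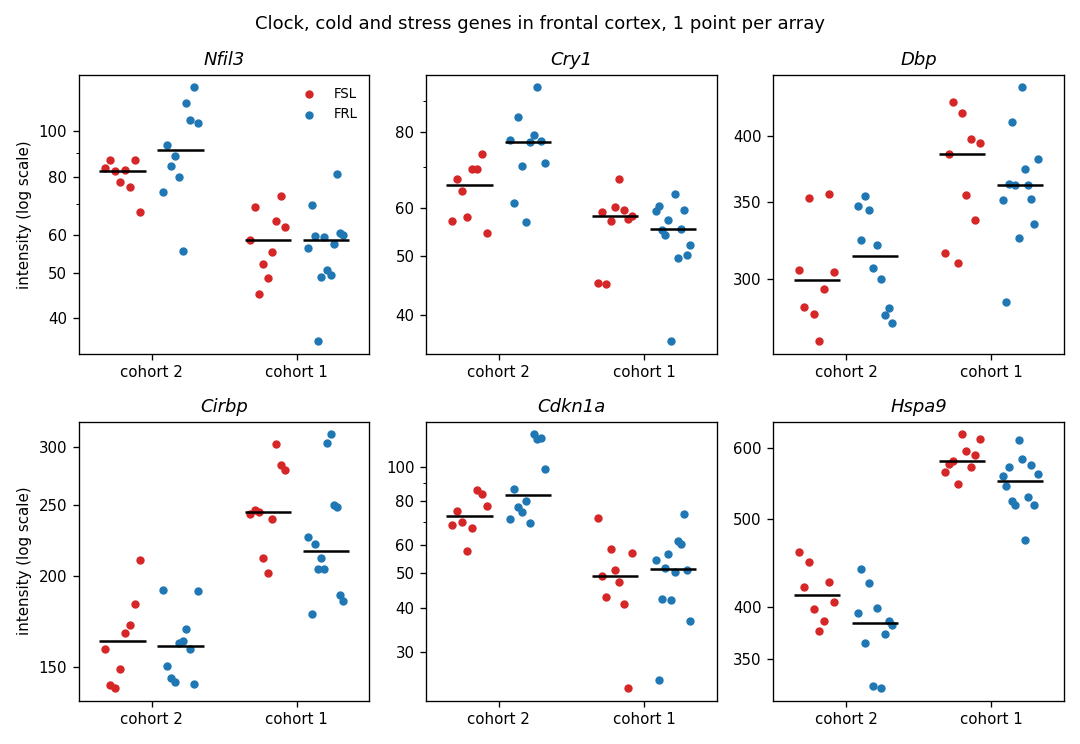
Intensity on a log scale of 3 clock genes (Nfil3, Cry1, Dbp), the cold-inducible Cirbp and 2 stress-related genes (Cdkn1a, Hspa9) in each P/FC array, with cohort 2 left of cohort 1, FSL in red, FRL in blue and a bar at the median of each group. The cohorts of Hspa9 did not overlap, and those of the other 5 genes did.

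Stress genes were counted by pathway, and no list was tested against the share over all genes. With 1 probeset a gene, that share was 14.2% higher and 10.5% lower. Among genes that glucocorticoids induce, 7 of 18 kept members rose, none fell and 11 did not pass (median change 0.16). The 7 included Cdkn1a, a cell cycle inhibitor, which lay between 57.9 and 124 (median 77.3) in cohort 2, against 23.7 to 73.4 (median 51.0) in cohort 1, a change of 0.77 ± 0.11 (SE, adjusted p = 2.16e-06, limma). The inhibitor of NF-kappa B Nfkbia rose by 0.51, Angptl4, a regulator of lipoprotein lipase, by 0.50, the kinase Sgk1 by 0.44 and the transcription factor Klf15 by 0.19. Dusp1, counted above with the effectors, is also in this list. At an unadjusted p under 0.05 (limma), 9 of the 18 were higher in FRL and 5 in FSL, where 14.2% of all probesets were higher in each line. In FSL alone Nfkbia, Angptl4, Sgk1 and Klf15 did not pass, and in FRL alone Klf15 and Dusp1 did not. By sign 13 of the 18 changes were positive and 5 negative. Outside the 7 that rose, the brightest probeset of Fkbp5 gave -0.04 and did not pass, and its second gave 0.48 and passed. The brightest of Klf9 gave 0.11 and did not pass, and its second gave -0.33 and passed. With the Actb ratio in the fit 3 of the 18 were higher and 1 was lower. In the list of the hormone axis itself, with the receptors and the corticotropin-releasing hormone system, 1 of 10 rose and 1 fell: Crhbp, which binds that hormone, rose by 0.34, and Fkbp4, a receptor co-chaperone, fell by 0.17.

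Heat shock proteins and co-chaperones moved in both directions, with 7 of 22 higher and 4 lower. Hspa9, the mitochondrial member of the HSP70 family, lay between 325 and 459 (median 396) in cohort 2 and between 474 and 621 (median 571) in cohort 1. The cohorts did not overlap, and the change was -0.51 ± 0.04 (SE, adjusted p = 4.84e-14, limma). Its dimmer probesets gave -0.90 and -0.06, the last of which did not pass. Hspa4, a nucleotide exchange factor for HSP70, fell by 0.66 and the factor Hsf2 by 0.18. Bag3, a co-chaperone of autophagy, rose by 0.46, the small heat shock proteins Hspb8 and Cryab by 0.34 and 0.30, and the HSP90 partner Chordc1 by 0.16.

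The list of endoplasmic reticulum stress had 4 of 22 higher and 4 lower. Xbp1, a transcription factor of the unfolded protein response, rose by 0.11 and the chaperone Hyou1 fell by 0.18. Canx, a lectin chaperone, gave 0.12, -0.10 and -0.54 in its 3 probesets, all of which passed. Of hypoxia-induced genes 5 of 14 were higher and 1 lower, Ndrg1 by 0.30 among those that rose. Vegfa, the vascular growth factor, gave 0.14 and -0.56 in its 2 probesets, and the first did not pass without replicate 3 of FRL in cohort 2 (0.12). Of the genes of oxidative stress defence 4 of 20 were higher and 2 lower, near the shares of 14.2% and 10.5% over all genes. By sign 10 of the 20 changes were positive and 10 negative, with a median of -0.006. Nfe2l2, the factor that controls many of them, rose by 0.25, and its known targets Nqo1 and Gclc by 0.26 and 0.17, while the mitochondrial dismutase Sod2 fell by 0.29. With the Actb ratio in the fit Nfe2l2 and Nqo1 did not pass. A second probeset of Gclc gave 0.006 and did not pass, and those of Srxn1 gave 0.30 and -0.32 and both passed.

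**Figure D4:**
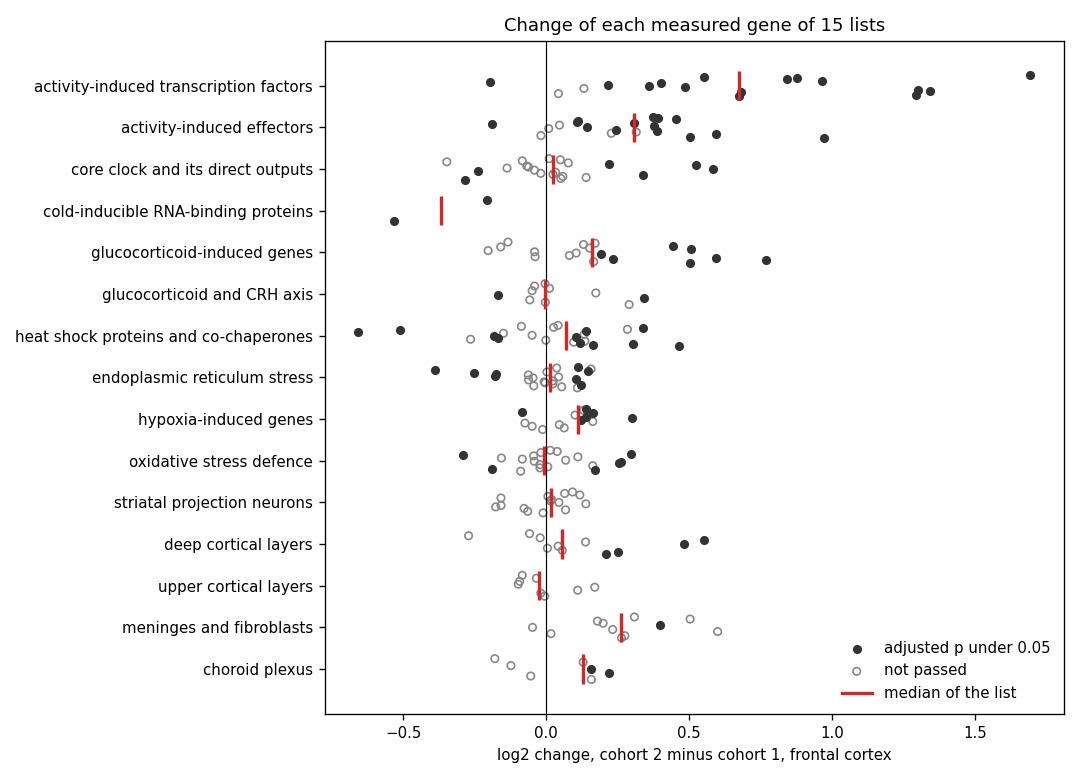
Log2 change of each kept gene of 15 lists, cohort 2 minus cohort 1, 1 probeset a gene, with filled points for genes that passed, open points for those that did not and a red bar at the list median. The activity-induced transcription factors had the highest median (0.67) and the cold-inducible proteins the lowest (-0.37).

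Markers of neighbouring tissue were counted by list, where 14.2% of all genes, with 1 probeset a gene, were higher and 10.5% lower. None of 15 striatal projection neuron markers passed, such as dopamine receptors and neuropeptides, and their median change was 0.02. The mean log2 intensity of that list varied widely among arrays, between 6.82 and 8.77 in cohort 2 and between 6.51 and 8.83 in cohort 1. By line the median change was 0.35 in FRL and -0.48 in FSL, and no member passed the test of the difference between the lines. In the meningeal list, Dcn, a proteoglycan of connective tissue, was the only member among 11 that passed (higher by 0.40). By sign 10 of the 11 changes were positive and 1 negative, with a list median of 0.26. The mean log2 intensity of that list lay between 5.87 and 7.71 in cohort 2 and between 5.69 and 7.68 in cohort 1. Dcn did not pass with the Actb ratio, the Gapdh ratio, the meningeal level or the level of Arc in the fit, nor in either line alone. Of 7 choroid plexus markers 2 were higher, and none with the Actb ratio in the fit, and of 7 hippocampal neuron markers 1 was higher and 1 lower. The mean log2 intensity of the choroid plexus list was 6.14 to 6.64 in cohort 2 and 6.02 to 6.55 in cohort 1. Adding the striatal level to the fit left 6302 probesets that passed, and adding the meningeal level 5618.

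Of cortical layer markers 4 of 11 in the deep layer list rose, among them Fezf2, a factor that specifies corticospinal neurons, by 0.48, and the repressor Bcl6, by 0.21. Nr4a2, in that list too, is also an activity-induced gene. None of 8 upper layer markers passed. Single genes stood apart in other lists. Zic1, a factor of the basal forebrain and septum, fell by 0.42, and Rgs16, a regulator of G protein signalling listed for thalamus, rose by 0.29. Bcl11b, listed for hippocampal neurons and also a factor of deep layer neurons, fell by 0.59 in its brightest probeset. That fall did not pass with the Actb or the Gapdh ratio in the fit. The other probesets of Bcl11b gave 0.10 and -0.21 and did not pass. In bulk tissue, fewer cells of a type and less RNA per cell cannot be told apart.

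Among the lists of cell types, all of them short, glia and interneurons had smaller shares of members that passed than neurons did, without a test of that difference. Over all genes, with 1 probeset a gene, 24.7% passed, and no list was tested against that share. Astrocytes had 2 of 15 higher and 1 lower. Microglia had 1 of 15 (Tmem119, higher by 0.38), myelinating oligodendrocytes 1 of 13 (Mal, a myelin proteolipid, lower by 0.30, or 0.25 and not passed without replicate 7 of FRL in cohort 2), and inhibitory interneurons 2 of 16, 1 lower and 1 higher, which was the neuropeptide Vip, by 0.35. Of 14 markers of neurons in general 2 rose and 3 fell, among them the RNA-binding protein Elavl4, which rose by 0.39, and the tubulin Tubb3, which fell by 0.42. Of 10 glutamatergic markers Neurod2 rose by 0.37, and Camk2a, the alpha subunit of a calcium-dependent kinase, and Grin2b fell by 0.37 and 0.62. The mean log2 intensity of the 14 general neuron markers had a median of 10.83 in cohort 2 and 10.85 in cohort 1, and was at least 10.62 on every array, so the neuronal markers of the labelled tissue were bright. The second probeset of Tubb3, a dim one, gave 0.00, and those of Camk2a gave 0.13, -0.07 and -0.32.

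In the lists of receptors, metabolism and RNA binding, single genes had no overlap between the cohorts, which held for 0.306% of all probesets. They were 1 of 10 GABA receptor genes and 1 of 70 mitochondrial ribosomal genes, for example. No ionotropic glutamate receptor or oxidative phosphorylation gene was among them. Gabrb1, the beta 1 subunit of the GABA A receptor, lay between 549 and 703 (median 588) in cohort 2 and between 194 and 521 (median 365) in cohort 1, without overlap, a change of 0.79 ± 0.08 (SE, adjusted p = 7.49e-10, limma). The potassium channel Kcna1 rose by 0.51. Of 15 ionotropic glutamate receptor subunits 1 rose and 5 fell, including Grin2b, the kainate receptor subunit Grik2 (-0.28) and the AMPA receptor subunit Gria3 (-0.18). Of 76 genes of oxidative phosphorylation 7 rose and 20 fell, a median change of -0.04. Their falls were small, such as 0.22 in Atp5mf, a subunit of ATP synthase, and 0.16 in Cox5b, a subunit of cytochrome oxidase. The splicing regulator Hnrnpa1 fell by 0.53 and the mitochondrial ribosomal protein Mrpl51 by 0.38, both without overlap between the cohorts. The other probesets of Hnrnpa1 gave -0.10 and -0.03, and the second of Grin2b gave -0.07, and these did not pass.

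The 15 largest rises and the 15 largest falls among named probesets included 7 activity-induced genes, 2 of them, Homer1 and Arc, effectors, beside genes of other kinds. Eif4ebp2, a repressor of cap-dependent translation, lay between 208 and 358 (median 267) in cohort 2 and between 76.1 and 127 (median 93.7) in cohort 1, a change of 1.51 ± 0.06 (SE, adjusted p = 6.48e-21, limma). Gsk3b, a kinase of Wnt and insulin signalling, and Ythdf2, a reader of methylated adenosine in RNA, also did not overlap and changed by 1.38 and 0.99. The neurotrophin receptor Ntrk2, the factors Nrf1 and Sox2, the sodium pump subunit Atp1b2 and the nuclear matrix protein Matr3 rose by 0.98 to 1.15.

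Vdac1, a channel of the outer mitochondrial membrane, lay between 150 and 455 (median 286) in cohort 2 and between 518 and 836 (median 722) in cohort 1, without overlap, a change of -1.30 ± 0.09 (SE, adjusted p = 9.89e-14, limma). Pogz, a chromatin protein, also did not overlap and changed by -0.92. The changes were -1.16 in the G protein subunit Gnaq, -1.09 in the exchange factor Psd, -1.07 in the glycosidase Oga, -1.06 in the sorting nexin Snx10 and -1.02 in the GABA transporter Slc6a11. Glul, the glutamine synthetase of astrocytes, fell by 0.97, and the endosomal protein Eea1, the kinase Map3k1, the factor Adnp, Ssr3, Poldip2, Rnf6 and the long noncoding RNA Oip5-as1 by 0.92 to 1.01.

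Several of these genes had other probesets with a smaller or opposite change. Brighter probesets of Vdac1, Eea1, Poldip2 and Matr3 gave -0.24, -0.03, 0.03 and 0.03, and the brightest of Glul and of Sox2 gave -0.05 and -0.06. The other probeset of Ythdf2 fell by 0.49, and the brightest of Ntrk2 gave 0.10. Over the table, 525 genes had more than 1 probeset that passed, and in 157 of them (29.9%) the probesets passed in both directions. The 30 leading changes thus belong to the probesets named, and for many not to every transcript of the gene.

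In HIP of the same cohorts, fitted in the same way, 39.7% of the 20783 probesets kept in both regions passed. Of the P/FC calls among them 52.5% also passed in HIP, and of the HIP calls 36.8% also passed in P/FC. Of the 3038 that passed in both, 2765 had the same sign. The labels do not link the arrays of an animal, and the fit treated the regions as independent. The difference between the regions passed in 3347 probesets (16.1%), of which 1961 (9.44%) were higher in P/FC and 1386 (6.67%) lower. With quantile normalisation of all arrays 3356 passed, 1596 higher and 1760 lower, so that the split by direction depended on the scaling.

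The change differed between the regions in 5 of 16 activity-induced factors and in 8 of 18 effectors. The change of Nr4a3 was 1.69 in P/FC and 0.70 in HIP (adjusted p = 3.66e-06 for the difference, limma), that of Klf10 was 0.97 and 0.09 (adjusted p = 0.000731) and that of Arc was 0.97 and 0.32 (adjusted p = 0.0205), P/FC first. The other probesets of Nr4a3 changed by 0.50 and 0.46 in P/FC and by -0.09 and 0.46 in HIP, so the size of the difference between regions depended on the probeset. Fos and Nr4a2 changed by 1.34 and 0.55 in P/FC and by 1.08 and 0.65 in HIP, and the difference between the regions did not pass (adjusted p = 0.548 and 0.667, limma). Among the 16 factors kept in both regions 10 were higher in HIP and 1 lower, and among 18 effectors 6 were higher and 4 lower, where 17.4% of all probesets were higher in HIP and 22.3% lower. Cirbp fell by 0.53 in P/FC and by 0.51 in HIP, whereas Rbm3 changed by -0.21 in P/FC and by -0.01 in HIP (adjusted p = 0.0347, limma). Nfil3 rose by 0.58 in P/FC and by 0.19 in HIP (adjusted p = 0.0103 for the difference, limma).

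**Figure D5:**
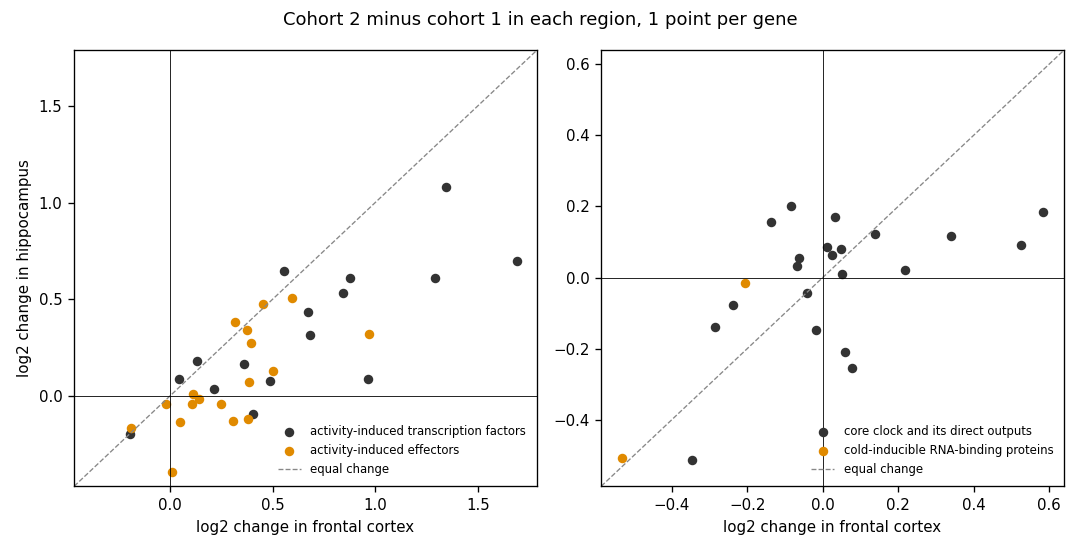
Log2 change of each activity-induced gene (left) and each clock or cold-inducible gene (right), cohort 2 minus cohort 1, in P/FC on the horizontal axis and in HIP on the vertical axis, with a dashed line of equal change. Of the activity genes 12 of 16 factors and 15 of 18 effectors lay below the line, and Cirbp lay near it at -0.53 in P/FC and -0.51 in HIP.

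No probeset passed for the difference between FSL and FRL in their cohort change (0.0% of 22233, smallest adjusted p = 0.998, limma), and 1032 had an unadjusted p under 0.05. The 5 named probesets with the smallest p were those of Spag4, Heg1, Esyt2, Sox13 and Samd14, with differences between the lines of 0.35, 0.32, 0.42, -0.49 and -0.51 on the log2 scale. Fos changed by 1.66 in FSL and by 1.10 in FRL, and Arc by 1.29 and 0.72, FSL first, with a difference that did not pass (adjusted p = 0.998 for each, limma).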

How the data were processed

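RNA of frontal cortex and hippocampus was measured on Affymetrix Rat Genome 230 2.0 arrays, 1 animal and region to an array. The authors deposited a table of intensity values for 31099 probesets in 78 arrays, linear and already normalised between arrays in Rosetta Resolver, with the scanner files not used here. Read depth does not apply, and precision is limited by how many arrays there are. Values under 1 (11847 of 1212861 in P/FC) were set to 1, log2 was taken, and a probeset was kept where 50% or more of each cohort's arrays exceeded 30.

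Groups followed the labels. The contrast of cohort 2 minus cohort 1 came from limma 3.58.1 (R 4.3.3), line being a covariate, with further fits for line by cohort and region by cohort terms. P-values were adjusted by Benjamini-Hochberg over all probesets tested, and SE is that of limma. That animals were separate follows from the study's design. The 2 labelling batches of each cohort are not in the labels and were not modelled. Array measures were compared by a two-sided permutation test (100000 draws, shuffling cohort within line). Fits were tested on simulated data.

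Gene names came from the platform annotation: 20826 probesets had 1 gene symbol, 436 several and 9780 none. A gene in a list is its brightest kept probeset. Of 1001 entries in 49 lists, 931 were on the array. The members and lists were chosen with earlier results of these data known, and the searches for TGACG and the CArG box were added after the values were seen. The text names members of the dissection, clock, activity and stress lists, up to 5 members of each other list by smallest p, the 15 largest rises and falls shared by both lines, the 5 leading probesets of each interaction, and other probesets of these genes. Alternatives changed the normalisation, offset, filter, covariates, lines and arrays used.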

Additional observations from a re-analysis of the deposited data

Results flagged for a closer look

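Among 309 tests of a group of 4 to 10 arrays, 13 found an array standing apart from the rest of its group by Dixon's criterion, where chance gives about 1 in 20. In FRL of cohort 2, replicate 7 had 703 for Gabrb1 (others 549 to 626), 418 for Mal (others 696 to 1058) and 55.2 for the leading probeset of Nrf1 (others 83.2 to 114), and this array also had the highest Actb ratio. Replicate 3 of that group had 3315 for Camk2a (others 1771 to 2271). In FSL of cohort 2, replicate 3 had 49.3 for Inhba (others 70.4 to 96.4) and 216 for Vip (others 294 to 376), replicate 7 had 107 for Bag3 (others 88.0 to 96.2) and 2110 for Atp5mf (others 1636 to 1798), and replicate 6 had 145 for Rgs16 (others 110 to 124). In FSL of cohort 1, replicate 7 had 5.91 for Fosb (others 27.7 to 42.0), and replicate 9 had 57.3 for Crhbp (others 86.0 to 116), 34.4 for the leading probeset of Homer1 (others 64.6 to 109) and 125 for Rnf6 (others 155 to 172).

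The cohort change differed between P/FC and HIP, by the limma interaction with an adjusted p under 0.05, in 36 named genes or probesets. These include the 5 named for the smallest p of this difference, so their passing was fixed by that choice. The others came from the 103 named changes. Over all probesets kept in both regions 16.1% passed, and region cannot be told apart from the separate processing of each region. As P/FC minus HIP on the log2 scale, the difference among activity genes was 0.20 for Jun, 0.51 for Junb, 0.71 for Egr2, 1.00 for Nr4a3, 0.90 for Klf10, 0.69 for Arc, 0.37 for Bdnf, 0.32 for Dusp6, 0.52 for Inhba and 0.45 for Ptgs2. Among clock, cold and stress genes it was 0.40 for Nfil3, -0.19 for Rbm3, 0.66 for Cdkn1a, 0.47 for Angptl4, -0.53 for Hspa4, 0.28 for Bag3, 0.52 for Hspb8, 0.27 for Nfe2l2 and -0.20 for Sod2. Among neuronal and other listed genes it was -0.47 for Zic1, -0.21 for Gria3, 0.13 for Mrpl51, -0.32 for Tubb3, -0.47 for Camk2a and -0.40 for Neurod2, which rose in both regions. Among the leading probesets it was 0.65 for Gsk3b, -0.71 for Vdac1, -0.68 for Snx10, -0.68 for Slc6a11, -0.49 for Glul and 0.42 for Pogz.

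The 5 named probesets with the smallest p for this difference were those of Eef1a1 (-0.45, with -0.31 in P/FC and 0.13 in HIP), C20h6orf89 (0.62, with 0.39 and -0.22), Ttyh1 (-0.50, with -0.11, which did not pass, and 0.38), Serinc1 (-0.50, with -0.32 and 0.18) and Dbn1 (-0.27, with -0.13 and 0.13), P/FC first.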

How the results depend on the processing

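The 6043 probesets that passed became 3541 with the Actb ratio in the fit, 2838 with the level of Arc, 3581 with a filter of 100, 2246 in FRL alone, 3159 in FSL alone and 2916 genes when each gene's probesets were averaged, the filter and the means testing fewer features. Leaving out 1 array gave 5683 (without FRL cohort 2 replicate 7) to 6114. The activity-induced factors that were higher numbered 9 with a filter of 100, 13 in FSL alone, 9 in FRL alone, 7 with the level of Arc and 14 without any 1 array. The effectors numbered 10 in FSL alone, 5 in FRL alone, 7 with the Actb ratio, 3 with the level of Arc and 11 to 14 without 1 array. The region difference passed in 2165 probesets with a filter of 100. Line by cohort passed in 0 under each alternative run. The cohort difference of the Actb ratio was 0.134 to 0.168 and that of Gapdh 0.0704 to 0.0930 without 1 array.

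Of the 103 named changes, 25 no longer passed with the Actb ratio, 14 with the Gapdh ratio, 33 in FRL alone and 19 in FSL alone. The direction turned for Jun (-0.0404), Canx (-0.17) and Vegfa (-0.21) when each gene's probesets were averaged, and for Junb (-0.12), Ier2 (-0.0277) and Dusp1 (-0.0693) with the level of Arc in the fit. For Jun, Canx and Vegfa the other probesets, given above, had changes of the other sign, and the mean takes these in. For Junb, Ier2 and Dusp1 the cause was not tested. Calls of 3 genes, Homer1, Vegfa and Mal, were lost without some 1 array. The replicate block gave 6543 probesets, and 896 at an unadjusted p under 0.05 for line by cohort, against 1032 without it. Same-numbered arrays of the cohorts correlated from -0.18 to 0.43, so the numbers were not taken as pairs. Signals near the filter of 30 are the least certain.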
